A study of Mus musculus with 11 samples.

Results

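The cortical collecting duct was compared with the early proximal tubule of the fetal mouse kidney, across all named genes that an expression array could measure. The collecting duct was represented by 2 arrays and the early proximal tubule by 3, of 11 arrays in the series; the other 6 held urothelium and ureteral smooth muscle, 3 each. All tissue came from wild-type CD-1 mice, an outbred stock, at E15.5 (Theiler stage 23), with sex given as unknown. Fetal kidneys were frozen and sectioned, and each structure was cut out by laser capture microdissection; approximately 50 sections, taken from 5 kidneys, went into each pool. RNA from each pool was amplified in 2 rounds before hybridisation to a one-colour Affymetrix array. Each gene was read from 1 probe set (a group of short probes for 1 transcript), the one with the highest mean over the 11 arrays. A gene was kept if, in 2 or more arrays, that probe set was brighter than the median probe set, which left 13614 of 18193 named genes. Genes of a list called measured below are those kept, and dimmer members were not tested. A pool holds many cells, so fewer cells of a type and less RNA per cell cannot be told apart. The labels do not say if some pools drew on the same kidneys or fetuses, so the p-values measure only the spread between pools. That spread was estimated for each gene over all 11 arrays, the ureteral ones included.

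The 2 structures have different embryonic sources. The collecting duct grows from the ureteric bud, an outgrowth of the nephric duct that branches into the kidney and later fine-tunes the water, sodium, potassium and acid content of urine. The proximal tubule forms from mesenchymal cells that turn into epithelium, and it is the segment that takes back most of the filtered glucose, amino acids, phosphate and protein through a brush border of microvilli, secretes organic ions and makes glucose.

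The labels were first checked against defining genes. The summed signal of 10 collecting duct markers was 243486 and 155429 in the collecting duct pools, against 22717, 42365 and 28854 in the proximal tubule pools, and all 10 were separated between the groups. The summed signal of the 9 proximal tubule markers measured was 4295 and 8304 in the collecting duct, against 111994, 163561 and 131225 in the proximal tubule, and all 9 were separated as well, against 35% of all genes tested. Each label thus stood with the markers of its own structure. These lists were chosen with earlier results of these data known, so this is not an independent check. The proximal tubule sum in the second collecting duct pool was above that in the first, and the collecting duct sum was highest in the second proximal tubule pool. Markers of other structures were present on both sides. The podocyte list summed to 101105 and 83077 in the collecting duct, against 61786, 42013 and 60485 in the proximal tubule, and 0 of its 11 measured genes were called. The renal interstitium list summed to 80100 and 152129 in the collecting duct, against 61550, 86909 and 121906 in the proximal tubule, with 1 of 15 genes called higher and 1 lower. These are Postn, a matrix protein (2.59 ± 0.53 on the log2 scale), and Ntn1, a guidance cue (-2.24 ± 0.46). The leukocyte list summed to 5888 and 11149 in the collecting duct, against 4496, 4710 and 7782 in the proximal tubule, and 1 of its 8 genes was called. That gene, Ptprc, which encodes the surface antigen of all leukocytes, had signals of 2148 and 5709 in the collecting duct, against 28.8, 45.2 and 736 in the proximal tubule (4.24 ± 1.17, adjusted p = 0.0499). Postn lost its call without either collecting duct pool, Ntn1 without the first collecting duct or the second proximal tubule pool, and Ptprc without any one array but the third proximal tubule pool. The loop of Henle, nephron progenitor, endothelial, erythroid and smooth muscle lists had 0 called of 12, 13, 13, 5 and 13 measured genes. Of all genes tested, 5.84% were called. Lists this short, the podocyte list included, can hold 0 calls at that share, so their counts do not show that such cells were absent. The smooth muscle list summed to 11387 and 29581 in the collecting duct, against 13235, 13703 and 18125 in the proximal tubule. The part of these other cells in the results below was not tested.

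Signals were compared as log2(signal + 55), so a difference of 1 stands for a factor of 2 in a bright gene and understates the fold of a dim one. A gene was called if its adjusted p (limma's moderated test with Benjamini-Hochberg adjustment over all 13614 genes) was under 0.05 and its log2 difference, collecting duct minus proximal tubule, was at least 1 in size. In all, 795 genes were called (5.84% of those tested). Of these, 298 (2.19%) were higher in the collecting duct and 497 (3.65%) were lower. The median log2 difference of all genes was -0.06, with a median standard error (SE) of 0.523. Each SE uses a spread shared over the 4 groups, so a wide SE or a lost call can also come from urothelium or muscle arrays. Among called genes the median size was 2.67 on the higher side and 2.61 on the lower side. Differences of at least 5 were reached by 19 higher and 36 lower genes. For all 795 called genes the 2 collecting duct arrays lay outside the range of the 3 proximal tubule arrays, which was true of 35% of all genes tested (14.9% with the collecting duct higher and 20.1% with it lower). On the low side many genes were near background: 75 of the 298 higher genes (25.2%) were below the array median in every proximal tubule array, and 161 of the 497 lower genes (32.4%) were below it in both collecting duct arrays. The count rests on each array: without the first collecting duct pool 359 genes were called, without the second 364, and without the second proximal tubule pool 482. All 795 kept their sign in each of these fits, which the separation of the arrays fixes in advance.

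**Figure D1:**
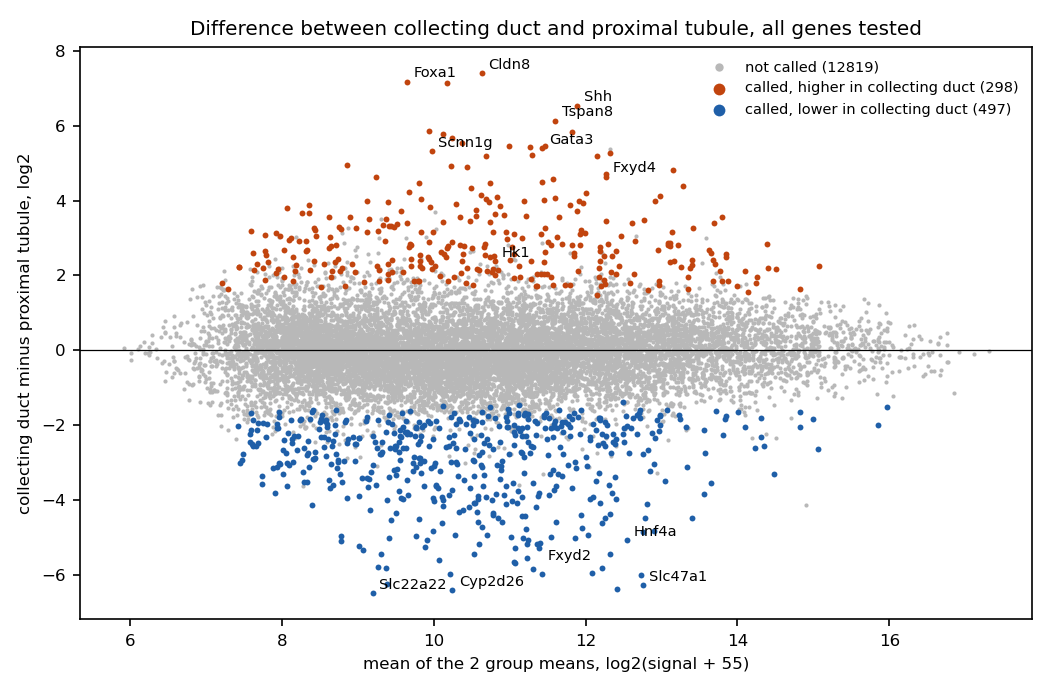
Difference between collecting duct and proximal tubule for all 13614 genes tested. The x axis is the mean of the 2 group means and the y axis the collecting duct mean minus the proximal tubule mean, both from log2(signal + 55), and each point is 1 gene. The 298 genes called higher in the collecting duct lie above 0 and the 497 called lower lie below it, over the whole range of brightness.

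The genes with the largest differences on the collecting duct side encode junction, signalling and transcription proteins. Cldn8, a claudin that seals tight junctions of the distal nephron and collecting duct, had signals of 16845 and 25236 in the collecting duct, against 4.43, 390 and 13.4 in the proximal tubule (log2 difference 7.41 ± 0.72, SE, n = 2 against 3, adjusted p = 0.000152). Foxa1, a forkhead pioneer transcription factor of endodermal and urogenital epithelia, gave 8511 and 10835 in the collecting duct, against 11.6, 12.4 and 10.4 in the proximal tubule (7.18 ± 0.53, adjusted p = 3.85e-05). Foxa1 was thus at background in all 3 proximal tubule pools, whereas the second of these pools held a visible Cldn8 signal. Aldh1a3, which oxidises retinaldehyde to retinoic acid, had 10965 and 17114 in the collecting duct, against 38.6, 107 and 5.49 in the proximal tubule (7.14 ± 0.67, adjusted p = 0.00014). The hedgehog ligand Shh, which signals from ureteric epithelium to nearby mesenchyme, gave 42907 and 31167 in the collecting duct, against 384, 1109 and 63.1 in the proximal tubule (6.54 ± 0.93, adjusted p = 0.00108). Tspan8, a tetraspanin of the cell surface, gave 26115 and 25894 in the collecting duct, against 190, 525 and 298 in the proximal tubule (6.14 ± 0.83). In each of Shh and Tspan8 the second proximal tubule pool was the highest of its group, yet far below either collecting duct pool.

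Further genes among the 20 most strongly higher had varied roles. The non-receptor tyrosine kinase Frk was higher by 5.87 ± 0.66, the matrix glycoprotein Efemp1 by 5.82 ± 0.69 and the surface protein Plet1 by 5.77 ± 0.71. Apela, a peptide ligand of the apelin receptor, had 8835 and 8308 in the collecting duct, against 145, 68.8 and 143 in the proximal tubule (5.66 ± 0.60, adjusted p = 0.000194). Its 2 collecting duct values were close to each other, as were those of Rprm, a regulator of the cell cycle, at 26776 and 28265, against 173, 1360 and 1260 in the proximal tubule (5.20 ± 0.91). The teneurin Tenm1 was higher by 5.54 ± 0.76. Cers3, a ceramide synthase for very long chains, gave 2771 and 2301 in the collecting duct, against 70.3, 19.3 and 9.02 in the proximal tubule (4.94 ± 0.58). Less even were Rgn, the calcium-binding protein regucalcin, at 6603 and 14876 in the collecting duct, against 155, 643 and 85.2 in the proximal tubule (5.19 ± 1.26, adjusted p = 0.0269), and Fam241a, whose proximal tubule signals ran from 14.5 to 2537 (5.23 ± 1.06). Rgn and Fam241a lost their calls without either collecting duct pool, and Rgn also without the first or the third proximal tubule pool.

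**Figure D2:**
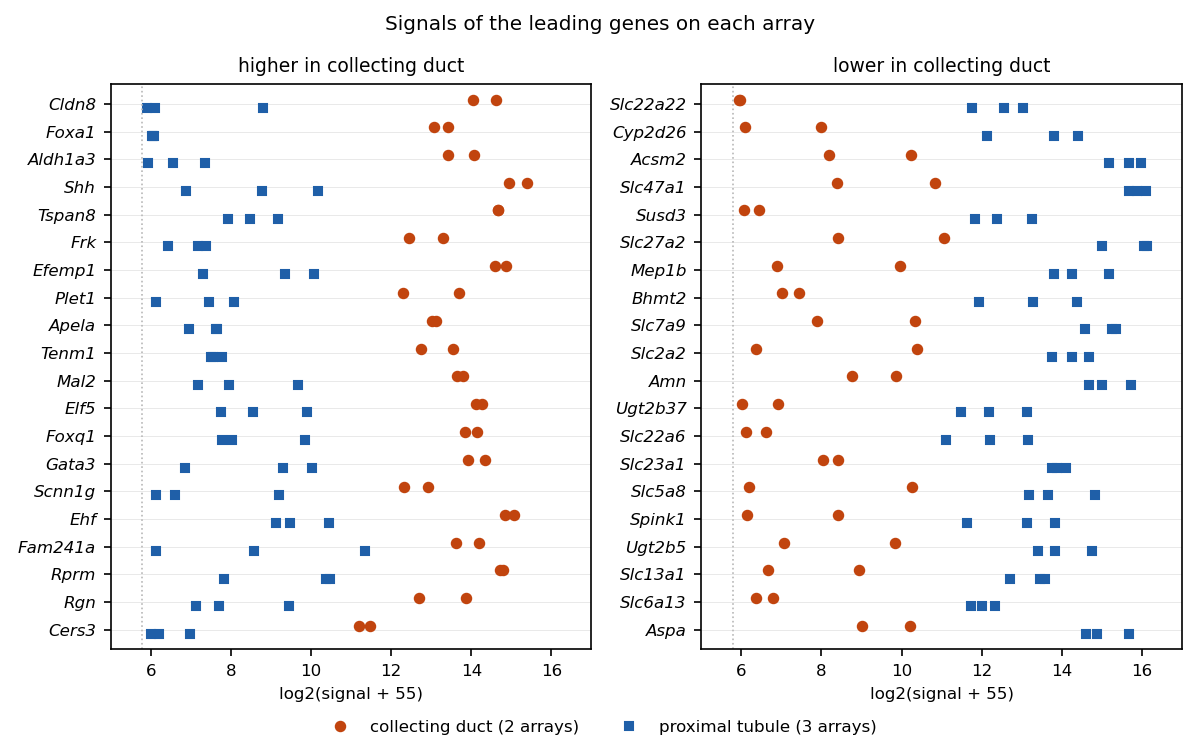
Signals of the 20 most strongly higher and the 20 most strongly lower genes by the naming rule, on each of the 5 arrays as log2(signal + 55). Circles are the 2 collecting duct arrays and squares, drawn just below them, the 3 proximal tubule arrays; the dotted line is the value of a signal of 0. In every row the 2 groups are separated, and several genes such as Foxa1 and Slc22a22 lie at the background line on the low side.

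Principal cells of the collecting duct take up sodium through the epithelial sodium channel and water through aquaporins under the control of vasopressin and aldosterone. Of 19 measured genes of the principal cell list, 9 were higher in the collecting duct and 0 lower, with a list median of 1.82. The gamma subunit of the sodium channel, Scnn1g, had 7739 and 5089 in the collecting duct, against 15, 529 and 42.9 in the proximal tubule (5.32 ± 0.72, adjusted p = 0.000756). The beta subunit Scnn1b gave 2142 and 1249 in the collecting duct, against 340, 414 and 505 in the proximal tubule (1.85 ± 0.45, adjusted p = 0.0278). The alpha subunit Scnn1a had 1932 and 1178 in the collecting duct, against 307, 451 and 417 in the proximal tubule, which is separated but not called (1.82 ± 0.62, adjusted p = 0.117). Each of the channel's 3 subunits thus had its higher values in the collecting duct. Avpr2, the vasopressin receptor that drives water uptake, gave 3254 and 1461 in the collecting duct, against 87, 235 and 229 in the proximal tubule (3.30 ± 0.81). Nr3c2, the mineralocorticoid receptor, was higher by 2.81 ± 0.76, and Hsd11b2, the enzyme that keeps glucocorticoids off that receptor, by 3.16 ± 0.70. The inward-rectifier potassium channel Kcnj10 was higher by 2.14 ± 0.49. Fxyd4, a collecting duct regulator of the sodium pump, had 32859 and 18316 in the collecting duct, against 719, 1443 and 778 in the proximal tubule (4.64 ± 0.52, adjusted p = 0.000275). The apical water channel Aqp2 itself was low, at 1293 and 862 in the collecting duct, against 426, 382 and 376 in the proximal tubule, and was not called (1.31 ± 0.48, adjusted p = 0.158). Scnn1g and Fxyd4 kept their calls without each single array, and the other 7 lost theirs without at least 1. With label batch as a fixed block, 5 principal cell genes were called, and Scnn1b, Avpr2, Nr3c2 and Kcnj10 were not. With that block on the 5 arrays alone 7 were called, without Scnn1b and Kcnj10. Without the first collecting duct pool 2 principal cell genes were called, without the second 4, and without the first or second proximal tubule pool 4 and 5.

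Intercalated cells secrete acid or base. Of 10 measured genes of that list 1 was called, the ammonia transporter Rhcg, with 1503 and 594 in the collecting duct, against 35.4, 86.9 and 83.5 in the proximal tubule (3.05 ± 0.62, adjusted p = 0.01). Rhcg was not called without the first collecting duct pool. Foxi1, the transcription factor that specifies intercalated cells, gave 584 and 354 in the collecting duct, against 159, 24 and 50.1 in the proximal tubule (2.08 ± 0.62, adjusted p = 0.0743), and did not pass the test. The anion exchanger Slc26a4 had 360 and 181 in the collecting duct, against 480, 1109 and 697 in the proximal tubule (-1.31 ± 0.44, adjusted p = 0.116). The list median was -0.13, close to that of all genes. Atp6v1b1, Atp6v1c2, Rhbg, Hepacam2, Dmrt2 and Insrr, also of this list, were too dim to be kept. Their highest signals ran from 35.2 (Rhbg) to 377 (Insrr) in the collecting duct. In the proximal tubule they ran from 53.8 (Hepacam2) to 401 (Atp6v1c2).

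Genes of the ureteric bud and its signalling were higher in 8 of 19 measured cases and lower in 0, with a list median of 2.17. The bud responds to the mesenchymal growth factor GDNF through the receptor Ret and its co-receptor Gfra1. Gfra1 had 15397 and 8151 in the collecting duct, against 563, 791 and 594 in the proximal tubule (4.01 ± 0.59, adjusted p = 0.00125). Ret, which marks the bud tip most strongly, gave 2271 and 5890 in the collecting duct, against 346, 18.7 and 752 in the proximal tubule, and missed the threshold (3.69 ± 1.03, adjusted p = 0.0537). Wnt9b, the ligand by which the duct induces nephron formation, was at 10612 and 4696 in the collecting duct, against 317, 659 and 391 in the proximal tubule (3.86 ± 0.69, adjusted p = 0.0045). The zinc finger factor Gata3, needed for the nephric duct, gave 20578 and 15543 in the collecting duct, against 60.4, 985 and 579 in the proximal tubule (5.40 ± 0.78), and its relative Gata2 was higher by 2.51 ± 0.47. Sox9, a factor of branching tips, had 710 and 850 in the collecting duct, against 132, 119 and 93.2 in the proximal tubule (2.30 ± 0.48). The guidance ligand Slit2 was bright on both sides, at 49104 and 49435 in the collecting duct, against 15433, 11902 and 7044 in the proximal tubule (2.17 ± 0.57). Calb1, the calcium-binding protein calbindin of distal nephron and duct, had the widest gap without a call: 28616 and 38104 in the collecting duct, against 348, 947 and 1207 in the proximal tubule (5.37 ± 1.51, adjusted p = 0.0543). With only these 5 arrays in the fit, when 742 genes (5.45%) were called, Calb1 was among them. Shh, Gata3 and Gfra1 kept their calls without each single array. Without the first collecting duct pool 3 genes of this list were called, and without the second 6.

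Transcription and splicing factors of epithelia formed a further group, with 8 of 20 measured genes higher and 0 lower. The related ETS factors Elf5 and Ehf gave 19509 and 17819 (Elf5) and 34075 and 29544 (Ehf) in the collecting duct. In the proximal tubule Elf5 was at 162, 899 and 317 and Ehf at 506, 1335 and 651, so that their log2 differences were 5.46 ± 0.76 and 5.28 ± 0.63. Grhl2, a grainyhead-like factor that maintains epithelial junctions, had 4735 and 6275 in the collecting duct, against 175, 475 and 524 in the proximal tubule (3.74 ± 0.60). Esrp1, an epithelial splicing regulator, gave 12516 and 13618 in the collecting duct, against 513, 612 and 446 in the proximal tubule (4.51 ± 0.48, adjusted p = 0.000194). The zinc finger factor Klf5 was higher by 3.18 ± 0.62, and Id3 and Id4, inhibitors of helix-loop-helix factors, by 1.78 ± 0.47 and 2.58 ± 0.44. The forkhead factor Foxq1, named by its size and not by this list, had 18041 and 14594 in the collecting duct, against 165, 864 and 205 in the proximal tubule (5.44 ± 0.70). Klf5 lost its call without the first collecting duct pool, and Id3 without any one array but the third proximal tubule pool.

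Keratins are the filament proteins of epithelia, and 4 of 9 measured were higher in the collecting duct. Krt18 had 29703 and 10360 in the collecting duct, against 1489, 2784 and 2836 in the proximal tubule (2.92 ± 0.56, adjusted p = 0.00705). Krt7, Krt19 and Krt23 were higher by 2.58 ± 0.70, 2.10 ± 0.53 and 2.99 ± 0.64. The partner keratin Krt8 was bright on both sides, at 87062 and 39785 in the collecting duct, against 18890, 32988 and 21652 in the proximal tubule, and was not called (1.30 ± 0.52, adjusted p = 0.192). All 4 keratins lost their calls without the first collecting duct pool, and 2 each remained without any one of the other 4 arrays. Krt7, Krt19 and Foxa1 also belong to the urothelium list, whose summed signal was 17333 and 16775 in the collecting duct, against 1867, 1886 and 3065 in the proximal tubule. The defining urothelial genes did not pass the test: Upk3a had 290 and 328 in the collecting duct, against 206, 58.8 and 45.3 in the proximal tubule, and Upk1b 378 and 418 in the collecting duct, against 78, 29.5 and 446 in the proximal tubule. In these 5 arrays both uroplakins were thus dim wherever they were measured.

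Membrane-domain and surface genes gave 4 of 21 measured members higher and 1 lower. Mal and Mal2, proteolipids that sort cargo to the apical membrane, had 27430 and 23241 (Mal) and 12745 and 14207 (Mal2) in the collecting duct. In the proximal tubule Mal was at 444, 1122 and 1473 and Mal2 at 90.1, 756 and 191, with log2 differences of 4.71 ± 0.56 and 5.46 ± 0.61. Muc1, a transmembrane mucin, gave 5954 and 2866 in the collecting duct, against 20.4, 132 and 437 in the proximal tubule (4.46 ± 0.94, adjusted p = 0.0122). Sptlc3, a subunit of the enzyme that starts sphingolipid synthesis, was higher by 2.95 ± 0.50, whereas Sgpp1, which dephosphorylates sphingosine phosphate, was lower by a log2 difference of -2.84 ± 0.60. Muc1 and Sptlc3 lost their calls without the first collecting duct pool, as did Muc1 without the second, and Sgpp1 without the first collecting duct or the second proximal tubule pool.

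The proximal tubule side was led by carriers and enzymes. Slc22a22, an organic anion transporter of mouse kidney, had 7.2 and 6.78 in the collecting duct, against 3400, 5923 and 8309 in the proximal tubule (-6.49 ± 0.50, adjusted p = 3.85e-05). It was at background in both collecting duct pools. Cyp2d26, a cytochrome P450, gave 12.8 and 201 in the collecting duct, against 4453, 14180 and 21686 in the proximal tubule (-6.41 ± 0.94, adjusted p = 0.00125). Acsm2, a synthetase for medium-chain acyl-CoA, had 236 and 1159 in the collecting duct, against 52342, 64297 and 36799 in the proximal tubule (-6.39 ± 1.12, adjusted p = 0.00387). In both the second collecting duct pool was above the first. Across all 497 lower genes the second collecting duct pool had the higher signal for 261 (52.5%), against 42.8% of all genes. For the 298 higher genes the second proximal tubule pool was the highest of its 3 for 134 (45%), against 28.5% of all genes. Susd3, a membrane protein with a sushi domain, had 12.1 and 32.2 in the collecting duct, against 3623, 5287 and 9800 in the proximal tubule (-6.24 ± 0.61). Spink1, an inhibitor of trypsin, was at 15.1 and 287 in the collecting duct, against 8952, 14514 and 3142 in the proximal tubule (-5.60 ± 0.92). Acsm2 and Spink1 lost their calls without the first collecting duct pool.

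Among transcription factors of the nephron, 0 of 17 measured were higher in the collecting duct and 6 were lower. Maf was not called, but other probe sets of it passed as lower (-2.74 ± 0.59 and -3.58 ± 0.65). Hnf4a, the nuclear receptor known to drive proximal tubule maturation, had 1004 and 948 in the collecting duct, against 38942, 37589 and 28464 in the proximal tubule (-5.07 ± 0.97, adjusted p = 0.00647). The standard deviation of Hnf4a was 0.06 in the collecting duct and 0.25 in the proximal tubule, but 2.52 in urothelium, which widens this SE. The related Hnf4g gave 11 and 105 in the collecting duct, against 901, 675 and 341 in the proximal tubule (-2.66 ± 0.71). Vdr, the vitamin D receptor, was at 28.1 and 36.6 in the collecting duct, against 639, 838 and 547 in the proximal tubule (-3.05 ± 0.46, adjusted p = 0.00145). Tfec, a basic helix-loop-helix factor, differed by -4.51 ± 0.97, the bile acid receptor Nr1h4 by -2.60 ± 0.62, and Esrra, a nuclear receptor for mitochondrial genes, by -1.90 ± 0.45. Of this list 2 genes were called without the first collecting duct pool, 3 without the second and 2 without the second proximal tubule pool. Hnf4a lost its call without either collecting duct pool and Hnf4g without any one of the 5 arrays, while Vdr kept its call throughout.

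Because an HNF4 factor was among the genes that differed, promoter windows of 300 bases (250 before to 50 after the annotated start, RefSeq, GRCm38.p6) were searched on both strands for fixed letter strings. Windows were found for 221 higher genes (289 windows), 404 lower genes (512) and 10949 of all tested genes (13999). The HNF4 string CAAAGTCCA was in 9 windows of lower genes (1.76%) and 0 of higher genes, and in 68 of all windows (0.486%). The GATA string AGATAAG was in 7 windows of higher genes (2.42%), 14 of lower genes (2.73%) and 273 of all windows (1.95%). The ETS string CCGGAAG was in 9 windows of higher genes (3.11%), 53 of lower genes (10.4%) and 2170 of all 13999 windows. The grainyhead-like string AACCGGTT was in 1 window of higher genes, 1 of lower genes and 31 of all windows. TATAAA was in 37 windows of higher genes (12.8%), 53 of lower genes (10.4%) and 1110 of all windows (7.93%). No string contains another. These are counts of letters with no test, windows of 1 gene can overlap, and a match is not a binding site. The 9 windows with the HNF4 string belong to 8 genes. Shown here are those of Pdzk1 and Slc3a1, which the naming rule chose, and 1 of the 2 overlapping windows of Agxt2, the most strongly lower of the 8, beside the window of Foxa1, the most strongly higher named gene with a window, in which none of the strings occurs. Capitals mark matches to the strings, and each sequence runs 5′ to 3′ on the strand of the gene.
Pdzk1, a brush border scaffold, chr3:96829815-96830114 (plus strand): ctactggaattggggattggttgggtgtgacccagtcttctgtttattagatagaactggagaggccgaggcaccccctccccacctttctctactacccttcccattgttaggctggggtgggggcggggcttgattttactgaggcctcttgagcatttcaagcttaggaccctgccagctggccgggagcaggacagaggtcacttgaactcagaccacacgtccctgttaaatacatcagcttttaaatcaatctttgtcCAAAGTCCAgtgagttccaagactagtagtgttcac
Slc3a1, the heavy subunit of the cystine transporter, chr17:85028097-85028396 (plus strand): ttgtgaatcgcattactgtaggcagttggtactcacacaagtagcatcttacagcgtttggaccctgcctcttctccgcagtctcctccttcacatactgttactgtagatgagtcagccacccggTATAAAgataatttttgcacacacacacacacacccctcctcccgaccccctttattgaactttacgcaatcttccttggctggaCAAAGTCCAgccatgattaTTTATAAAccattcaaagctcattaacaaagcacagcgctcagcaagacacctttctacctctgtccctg
Agxt2, a mitochondrial aminotransferase, chr15:10358283-10358582 (plus strand): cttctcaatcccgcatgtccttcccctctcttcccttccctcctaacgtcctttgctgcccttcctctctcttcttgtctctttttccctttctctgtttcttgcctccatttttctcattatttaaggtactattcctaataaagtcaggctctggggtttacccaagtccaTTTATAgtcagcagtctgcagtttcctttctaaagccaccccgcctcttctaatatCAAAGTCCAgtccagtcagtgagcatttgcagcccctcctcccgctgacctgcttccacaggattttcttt
Foxa1, chr12:57546062-57546361 (minus strand): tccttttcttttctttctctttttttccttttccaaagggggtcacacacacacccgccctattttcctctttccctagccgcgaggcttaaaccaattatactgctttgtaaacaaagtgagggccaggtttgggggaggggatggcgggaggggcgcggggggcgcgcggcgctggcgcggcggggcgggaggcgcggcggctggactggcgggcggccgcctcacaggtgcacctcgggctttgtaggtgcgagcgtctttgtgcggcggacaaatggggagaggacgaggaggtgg
The HNF4 string starts at position 15 in Pdzk1, -39 in Slc3a1 and -21 in Agxt2, counted from 1 at the annotated start, and lies on the strand of the gene in all 3. The other capitals, in Slc3a1 and Agxt2, are TATA strings on either strand. Pdzk1 had 1115 and 1536 in the collecting duct, against 16678, 29843 and 19810 in the proximal tubule (-3.98 ± 0.60). Slc3a1 gave 469 and 487 in the collecting duct, against 5654, 13081 and 9500 in the proximal tubule (-4.07 ± 0.53). Agxt2 differed by -5.19 ± 0.82 (adjusted p = 0.00199). The other 5 genes with the string were Pipox (-4.35), Aadat (-4.11), Rab11fip3 (-3.28), Nat8 (-2.76) and Pafah2 (-2.08).

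Organic ion transporters secrete drugs, toxins and metabolites, and 10 of 23 measured were lower in the collecting duct and 0 higher, with a list median of -1.62. Slc47a1, the exporter of organic cations into urine, had 282 and 1782 in the collecting duct, against 51950, 70749 and 60213 in the proximal tubule (-6.27 ± 0.69, adjusted p = 0.000258). Slc22a6, the uptake carrier for organic anions, gave 42.7 and 14.9 in the collecting duct, against 2172, 4668 and 9054 in the proximal tubule (-5.79 ± 0.68, adjusted p = 0.000356). The cation uptake carrier Slc22a2 was at 382 and 212 in the collecting duct, against 4569, 12503 and 5295 in the proximal tubule (-4.31 ± 0.60). Uptake and export steps were thus both lower in the collecting duct. The urate exchanger Slc22a12 differed by -3.91 ± 0.54 and the anion carrier Slc22a19 by -5.07 ± 0.70. Without either collecting duct pool 6 genes of the list were called.

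Transporters of glucose, phosphate, sulfate and acids gave 15 of 25 measured genes lower and 0 higher, the largest share among the lists that are not cell markers, with a median of -2.40. Slc16a4 was not called, but another of its probe sets passed as lower (-2.54 ± 0.45). Glucose enters the cell from urine through Slc5a2 and leaves towards blood through Slc2a2. Slc5a2 had 671 and 391 in the collecting duct, against 3810, 9465 and 6428 in the proximal tubule (-3.45 ± 0.52, adjusted p = 0.00148). Slc2a2 gave 27.6 and 1284 in the collecting duct, against 19421, 25940 and 13690 in the proximal tubule (-5.84 ± 1.17, adjusted p = 0.00875). The general glucose carrier Slc2a1 did not pass the test, at 8627 and 4857 in the collecting duct, against 5417, 3850 and 4905 in the proximal tubule (0.46 ± 0.53, adjusted p = 0.722). The phosphate transporter Slc34a1 was at 266 and 709 in the collecting duct, against 9108, 15861 and 8125 in the proximal tubule (-4.42 ± 0.65). The phosphate and urate carriers Slc17a1 and Slc17a3 differed by -5.18 ± 0.60 and -4.72 ± 0.62, and the sulfate transporter Slc13a1 by -5.45 ± 0.66. Slc5a8, which takes up lactate and other monocarboxylates, differed by -5.66 ± 1.10, and the vitamin C transporter Slc23a1, which the size rule named, by -5.69 ± 0.49. Slc2a2 and Slc5a8 lost their calls without the first collecting duct pool, when 8 genes of the list were called, and 11 were called without the second.

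Amino acid and peptide transporters were lower in 10 of 25 cases and higher in 1. Slc7a9, the light subunit that pairs with Slc3a1 to carry cystine and dibasic amino acids, had 182 and 1226 in the collecting duct, against 24516, 38778 and 41683 in the proximal tubule (-5.95 ± 0.75, adjusted p = 0.000549). Slc6a13, a carrier of GABA and taurine, gave 56.1 and 27.8 in the collecting duct, against 3340, 4093 and 5115 in the proximal tubule (-5.44 ± 0.57). The proline carrier Slc6a20a differed by -4.13 ± 0.48 and the glutamate carrier Slc1a1 by -3.96 ± 0.58. The member that went the other way was Slc7a1, a carrier of arginine and lysine used by many cell types, with 25890 and 23952 in the collecting duct, against 5130, 5904 and 3266 in the proximal tubule (2.41 ± 0.46, adjusted p = 0.00631). Slc7a1 was not called without either collecting duct pool.

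Brush border and endocytic genes gave 13 of 27 measured members lower and 0 higher, with a median of -2.24. Dab2 was not called, but another of its probe sets passed as lower (-2.53 ± 0.63). Filtered protein is taken up by the receptors Lrp2 and Cubn, the latter held at the surface by Amn. Lrp2 had 776 and 3534 in the collecting duct, against 21579, 31776 and 37762 in the proximal tubule (-4.10 ± 1.02, adjusted p = 0.0308). Cubn gave 197 and 671 in the collecting duct, against 14214, 23623 and 13432 in the proximal tubule (-5.28 ± 0.53, adjusted p = 0.000168). Amn was at 377 and 867 in the collecting duct, against 25966, 32780 and 54278 in the proximal tubule (-5.83 ± 1.20, adjusted p = 0.0107). All 3 parts of this uptake system were thus lower in the collecting duct, Amn losing its call without either collecting duct pool and Lrp2 without any one of the 5 arrays. The meprin proteases Mep1a and Mep1b differed by -5.02 ± 0.65 and -5.99 ± 0.98, the microvillar protocadherin Cdhr2 by -4.96 ± 0.66, and the actin-bundling protein Vil1 by -4.93 ± 0.81. Vil1 had 185 and 323 in the collecting duct, against 8810, 9361 and 9129 in the proximal tubule. Without the first collecting duct pool 7 genes of the list were called, and without the second 8.

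Enzymes that modify drugs, steroids and bile acids were lower in 14 of 32 cases and higher in 2. Ugt2b37 and Ugt2b5, which attach glucuronic acid, differed by -5.81 ± 0.61 and -5.55 ± 0.66. Cyp2j5, a P450 that makes epoxides of arachidonic acid, had 22.5 and 16.9 in the collecting duct, against 2449, 5516 and 1167 in the proximal tubule (-5.11 ± 0.53, adjusted p = 0.000194). Glyat, which joins acyl groups to glycine, differed by -5.07 ± 0.65 and the sulfotransferase Sult1d1 by -3.97 ± 0.55. Gsta3 was not called, but another of its probe sets passed as higher (3.58 ± 0.67). The 2 called higher in the collecting duct were Cyp7b1, an oxysterol hydroxylase, and Gstt1, a glutathione transferase. Cyp7b1 had 10684 and 5830 in the collecting duct, against 1012, 1203 and 838 in the proximal tubule (2.90 ± 0.49, adjusted p = 0.00296). Gstt1 gave 4819 and 1787 in the collecting duct, against 27.7, 95.3 and 92 in the proximal tubule (4.62 ± 0.83, adjusted p = 0.0045). Neither was called without the first collecting duct pool. Near-identical family members share probe sequence on such arrays, so single Ugt2b and Cyp2j genes are uncertain.

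Fuel use differed in named steps. Genes of glucose production and fructose use were lower in 7 of 14 cases and higher in 0, with a median of -1.80. Pck1, the entry enzyme of gluconeogenesis, had 47.3 and 137 in the collecting duct, against 783, 1546 and 1070 in the proximal tubule (-3.03 ± 0.44, adjusted p = 0.00118). Fbp1, the next control point, gave 182 and 294 in the collecting duct, against 4398, 8668 and 4931 in the proximal tubule (-4.33 ± 0.77, adjusted p = 0.00418). G6pc, which releases free glucose, was at 50.1 and 29.6 in the collecting duct, against 257, 1249 and 1032 in the proximal tubule (-3.02 ± 0.74). Entry, middle and last steps of the pathway were thus all lower in the collecting duct. G6pc lost its call without any one array but the first proximal tubule pool, Fbp1 without the first collecting duct pool, and Pcx without the second collecting duct or the second proximal tubule pool. Fbp2, Gpd1 and Pcx differed by -3.59 ± 0.54, -3.62 ± 0.47 and -2.54 ± 0.53. Of the list, 4 genes were called without the first collecting duct pool, 4 without the second and 4 without the second proximal tubule pool. Of 16 glycolysis genes 1 was higher and 1 lower, against 2.19% and 3.65% of all genes tested. Hk1, which traps glucose in the cell, gave 5309 and 3074 in the collecting duct, against 675, 1005 and 574 in the proximal tubule (2.38 ± 0.41, adjusted p = 0.00374), and was not called without the first collecting duct pool. Pfkp, an isoform of phosphofructokinase, differed by -1.58 ± 0.42 (adjusted p = 0.0426). That call was lost without any one array other than the third proximal tubule pool.

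Fatty acid and peroxisomal genes were lower in 7 of 31 cases, among them Acsm2. The fatty acid carrier and synthetase Slc27a2 had 286 and 2067 in the collecting duct, against 32652, 68377 and 71311 in the proximal tubule (-6.00 ± 1.22, adjusted p = 0.00994). Acaa1b, a peroxisomal thiolase, gave 1042 and 1441 in the collecting duct, against 32611, 47826 and 32549 in the proximal tubule (-4.86 ± 0.55, adjusted p = 0.000275). Acsm1 and the reductase Pecr differed by -3.67 ± 0.59 and -2.27 ± 0.47. Without the first collecting duct pool 2 genes of this list were called, Acsm2, Slc27a2 and Pecr among those lost, and without the second 5. Of 35 genes of the respiratory chain and ATP synthase, 0 were called by limma, 2 had an unadjusted p under 0.05 and the median was -0.22. Of all 13614 genes tested, 5.84% were called and 2444 had an unadjusted p under 0.05. The summed signal of the 35 genes was 1013513 and 767735 in the collecting duct, against 987426, 969973 and 855581 in the proximal tubule, so the groups overlapped.

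Enzymes of amino acids and amines were lower in 15 of 33 cases and higher in 1. Hgd was not called, but another of its probe sets passed as lower (-3.47 ± 0.66). Bhmt2, a homocysteine methyltransferase, had 73.8 and 118 in the collecting duct, against 9912, 21356 and 3851 in the proximal tubule (-5.98 ± 0.89, adjusted p = 0.00137). Aspa, which splits acetylaspartate, gave 458 and 1124 in the collecting duct, against 30160, 51939 and 24658 in the proximal tubule (-5.44 ± 0.70). Hdc, which makes histamine, was at 1188 and 4179 in the collecting duct, against 52469, 50551 and 50533 in the proximal tubule (-4.48 ± 1.01, adjusted p = 0.0187). Its 3 proximal tubule values were nearly equal and among the brighter signals of these arrays. Prodh2, at 39.9 and 10.7 in the collecting duct, against 1334, 2857 and 3609 in the proximal tubule, had an adjusted p of 0.000132. The oxidases Dao and Dmgdh differed by -4.07 ± 0.50 and -3.90 ± 0.50. The 1 higher gene was the mitochondrial arginase Arg2, with 1558 and 1109 in the collecting duct, against 291, 370 and 197 in the proximal tubule (2.04 ± 0.53, adjusted p = 0.0365). Arg2 was not called without any one of the 5 arrays. Hdc lost its call without the first collecting duct pool or the second or the third proximal tubule pool. Without the first collecting duct pool 9 lower genes of the list were called.

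Plasma protein genes, best known from liver and yolk sac, were lower in 6 of 20 cases. Spp2, a secreted phosphoprotein, had 450 and 262 in the collecting duct, against 11253, 19227 and 13687 in the proximal tubule (-5.17 ± 0.41, adjusted p = 4.36e-05). Afp, the fetal serum protein alpha-fetoprotein, gave 2023 and 4846 in the collecting duct, against 54356, 62225 and 28032 in the proximal tubule (-3.84 ± 0.75, adjusted p = 0.00752). Ambp, the precursor of a filtered microglobulin, differed by -4.62 ± 0.56, and the protease inhibitor Serpinf2 by -4.19 ± 0.69. Serpina1b, of a family of near-identical copies, differed by -2.93 ± 0.69. Apom, an apolipoprotein, differed by -1.90 ± 0.50. Spp2, Ambp and Serpinf2 kept their calls without each single array, and Afp lost its call without the first collecting duct pool. Serpina1b lost its call without any one array but the third proximal tubule pool, and Apom without any one of the 5.

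**Figure D3:**
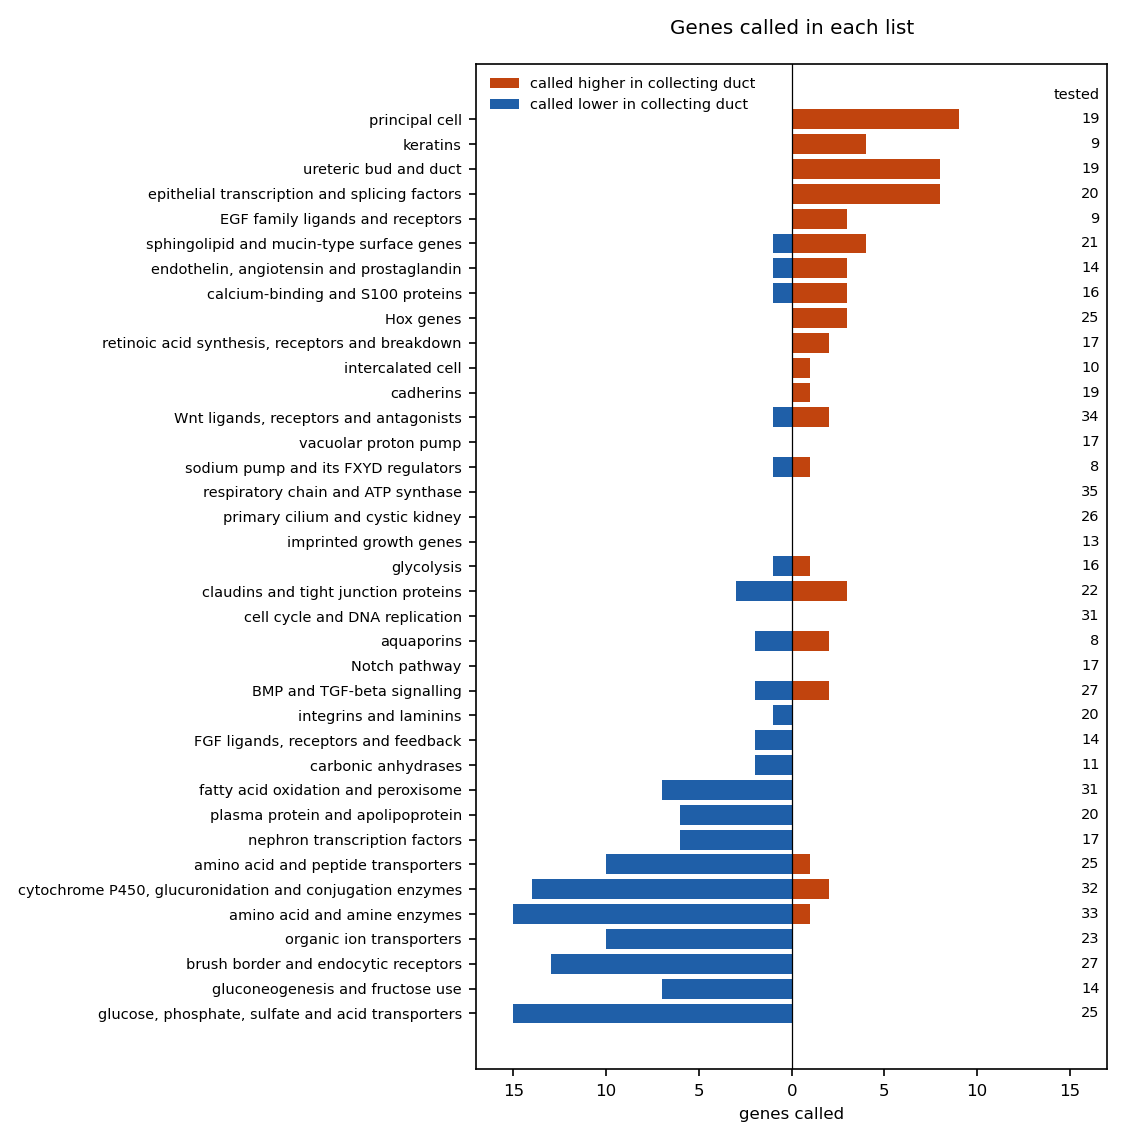
Number of genes called in each gene list. Bars to the right count genes higher in the collecting duct and bars to the left genes lower there, and the number at the right edge is how many genes of the list were tested. Principal cell genes had 9 higher and 0 lower of 19, and transporters of glucose, phosphate, sulfate and acids 0 higher and 15 lower of 25.

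Several families were split, with different members on each side. Of 8 measured aquaporins 2 were higher and 2 lower. Aqp3 and Aqp4, the water exits on the blood side of principal cells, had 4703 and 3959 (Aqp3) and 4648 and 1507 (Aqp4) in the collecting duct. In the proximal tubule Aqp3 was at 904, 718 and 252 and Aqp4 at 253, 406 and 146, with log2 differences of 2.84 ± 0.58 and 3.15 ± 0.77. Aqp1, the water channel of the proximal tubule, gave 40.8 and 205 in the collecting duct, against 1094, 2068 and 3218 in the proximal tubule (-3.66 ± 0.66, adjusted p = 0.0045). Aqp7, which also carries glycerol, differed by -2.08 ± 0.44. Of these 4, Aqp1, Aqp3 and Aqp4 lost their calls without the first collecting duct pool, Aqp3 and Aqp7 without the second, and Aqp4 also without the first or the third proximal tubule pool.

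Claudins set which ions pass between cells, and 3 of 22 claudin and tight junction genes were higher and 3 lower. With Cldn8, the higher ones were Cldn3 (3.83 ± 0.74) and Cldn4 (2.85 ± 0.54), both lost without the first collecting duct pool. Cldn2, the leaky claudin of the proximal tubule, had 436 and 1112 in the collecting duct, against 39980, 21380 and 14788 in the proximal tubule (-4.95 ± 0.79, adjusted p = 0.00208). Cldn10 gave 307 and 288 in the collecting duct, against 2544, 3031 and 3336 in the proximal tubule (-3.09 ± 0.54), and Cldn1 differed by -2.36 ± 0.63, a call lost without any one of the 5 arrays. The sodium pump's small regulators were split as well. Fxyd2 was at 321 and 487 in the collecting duct, against 10588, 16918 and 22629 in the proximal tubule (-5.15 ± 0.86, adjusted p = 0.00278), opposite to Fxyd4. Both kept their calls without each single array.

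Carriers and enzymes of acid and base differed as well. The sodium-proton exchanger Slc9a3 had 267 and 848 in the collecting duct, against 3706, 9485 and 2810 in the proximal tubule (-3.12 ± 0.65, adjusted p = 0.0117). The bicarbonate exit Slc4a4 gave 2322 and 5151 in the collecting duct, against 15082, 22591 and 12349 in the proximal tubule (-2.20 ± 0.53). Of 11 carbonic anhydrases 2 were lower, the membrane forms Car4 (-3.88 ± 0.79) and Car12 (-2.84 ± 0.52), and the cytosolic Car3 was not called (2.21 ± 0.63, adjusted p = 0.0607). Of 17 genes of the vacuolar proton pump, which serves both segments, 0 were called by limma, 3 had an unadjusted p under 0.05 and the median was 0.06. An unadjusted p under 0.05 was found for 2444 of all 13614 genes tested. Car4 lost its call without the second collecting duct pool, Car12 and Slc9a3 without the first, and Slc4a4 without the first collecting duct pool or the first or second proximal tubule pool.

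**Figure D4:**
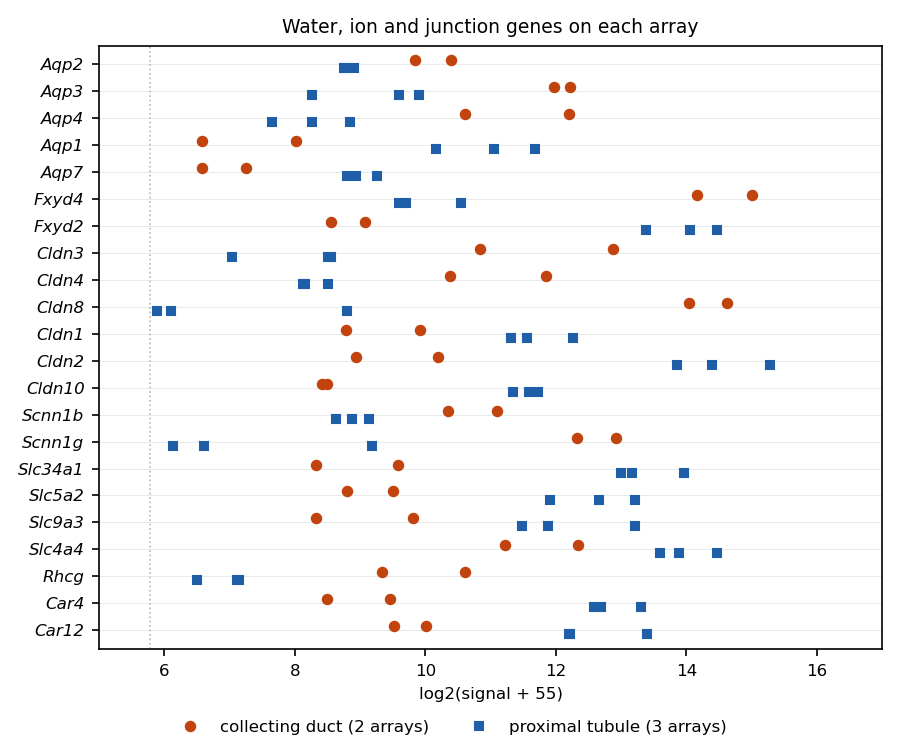
Signals of 22 water, ion and junction genes on each of the 5 arrays as log2(signal + 55). Circles are the 2 collecting duct arrays and squares, drawn just below them, the 3 proximal tubule arrays. Members of 1 family lie on opposite sides, such as Aqp3 and Aqp1, Fxyd4 and Fxyd2, and Cldn8 and Cldn2, and Aqp2, which was not called, has the narrowest gap between groups.

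Among growth factor genes single members were called, where 2.19% of all genes tested were called higher and 3.65% lower. In the EGF family 3 of 9 measured genes were higher: the ligands Btc and Nrg1 and the feedback inhibitor Errfi1. The receptor Egfr was not called, but another of its probe sets passed as higher (2.26 ± 0.41). Btc had 13022 and 16843 in the collecting duct, against 731, 796 and 307 in the proximal tubule (4.58 ± 0.49, adjusted p = 0.000199), while Nrg1 and Errfi1 differed by 2.22 ± 0.58 and 2.81 ± 0.70. Nrg1 was dim throughout, at 171 and 568 in the collecting duct, against 17.2, 40.1 and 20.7 in the proximal tubule. Of the FGF list 2 of 14 were lower, both receptors. Fgfr3 gave 919 and 1925 in the collecting duct, against 22044, 23787 and 14035 in the proximal tubule (-3.81 ± 0.60, adjusted p = 0.00192), and Fgfr4 1757 and 1059 in the collecting duct, against 8762, 14805 and 13521 in the proximal tubule (-3.09 ± 0.56). Fgfr2, the receptor needed for ureteric branching, had 40945 and 43445 in the collecting duct, against 12357, 13968 and 39738 in the proximal tubule, and was not called (1.15 ± 0.63, adjusted p = 0.371). The third proximal tubule pool was close to the collecting duct for Fgfr2. Btc kept its call without each single array. Nrg1 lost its call without any one array but the first collecting duct pool, and Errfi1 without any but the second proximal tubule pool. Fgfr4 was not called without the second collecting duct pool.

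Of 27 BMP and TGF-beta genes 2 were higher and 2 lower. The receptors Tgfbr3 and Tgfbr1 were higher by 2.65 ± 0.52 and 1.65 ± 0.43. The ligand Bmp4 had 487 and 380 in the collecting duct, against 3186, 2959 and 2309 in the proximal tubule (-2.55 ± 0.48, adjusted p = 0.00629), and Bmp6 20.8 and 46.6 in the collecting duct, against 672, 434 and 954 in the proximal tubule (-3.02 ± 0.69). Other probe sets of the ligands Bmp5 (4.42 ± 0.58) and Tgfb2 (2.19 ± 0.52), which were not called here, passed as higher. Only at the probe sets used were the called receptors thus higher in the collecting duct and the called ligands, Bmp4 and Bmp6, lower. Both receptors lost their calls without the first collecting duct pool, and both ligands without the second. Tgfbr1 lost its call without any one array but the second proximal tubule pool, and so did Bmp6. Of 34 Wnt genes, the receptor Fzd7 (1.95 ± 0.46) was higher along with Wnt9b, and the receptor Lgr4 lower (-1.66 ± 0.41). Of all genes tested, 2.19% were called higher and 3.65% lower. Fzd7 and Lgr4 each lost the call without any one of the 5 arrays. Wnt4, the ligand of forming nephrons, had 4414 and 2629 in the collecting duct, against 293, 674 and 1312 in the proximal tubule, and was not called (2.30 ± 0.69, adjusted p = 0.0739). Of 17 Notch genes 0 were called by limma and 4 had an unadjusted p under 0.05, against 2444 of all 13614 genes tested. The ligand Dll1 had the largest difference among the Notch genes, with 1786 and 2098 in the collecting duct, against 9590, 9126 and 10160 in the proximal tubule (-2.28 ± 0.73, adjusted p = 0.0963).

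Retinoic acid genes gave 2 of 17 higher, against 2.19% of all genes tested. These were Aldh1a3 and the binding protein Crabp2. Crabp2 had 2416 and 1960 in the collecting duct, against 13.6, 340 and 220 in the proximal tubule (3.51 ± 0.63, adjusted p = 0.0045). The related enzyme Aldh1a1 was separated but not called, at 3900 and 3102 in the collecting duct, against 1568, 757 and 89.3 in the proximal tubule (2.62 ± 0.77, adjusted p = 0.0677). Crabp2 was not called without the first collecting duct pool. Of the prostaglandin, endothelin and angiotensin list 3 of 14 were higher and 1 lower. Ptges (3.17 ± 0.70) and Ace (-2.40 ± 0.45), which were not called, each passed at another probe set. The prostaglandin receptor Ptger4 had 5366 and 2441 in the collecting duct, against 874, 36.9 and 77.4 in the proximal tubule (4.04 ± 0.83, adjusted p = 0.0107). The degrading enzyme Hpgd was higher by 2.39 ± 0.55 and the endothelin receptor Ednrb by 2.62 ± 0.72, whereas the prostaglandin carrier Slco2a1 differed by -3.07 ± 0.65. All 4 lost their calls without the first collecting duct pool, Ednrb without any one array, Hpgd without any but the second proximal tubule pool, and Slco2a1 also without that pool.

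Of 25 Hox genes, which encode positional transcription factors, 3 were higher and 0 lower, against 2.19% and 3.65% of all genes tested. All 3 belong to the Hoxd cluster, and no other listed Hoxd gene was called. Hoxd8 had 11717 and 22663 in the collecting duct, against 1336, 2556 and 848 in the proximal tubule (3.46 ± 0.55, adjusted p = 0.00208). Hoxd1 and Hoxd9 were higher by 3.34 ± 0.63 and 2.52 ± 0.57. The list median was -0.23, with 16 of the 22 genes not called having a negative difference. Without the first collecting duct pool 1 Hox gene was called, without the second 2, and without the third proximal tubule pool 4. Of the annexins, which bind membranes with calcium, Anxa1, Anxa2 and Anxa3 were higher by 2.81 ± 0.48, 2.03 ± 0.46 and 2.09 ± 0.48. Anxa13 had 148 and 260 in the collecting duct, against 4045, 3750 and 4583 in the proximal tubule (-4.04 ± 0.88, adjusted p = 0.0153). Among adhesion genes 1 of 19 cadherins was called, Pcdh7 (2.99 ± 0.63), and 1 of 20 integrins and laminins, Itga1, against 5.84% of all genes tested. Itga1, a collagen-binding integrin, gave 537 and 885 in the collecting duct, against 7412, 6674 and 7682 in the proximal tubule (-3.29 ± 0.49, adjusted p = 0.0013). Cdh1, or E-cadherin, was at 26346 and 21762 in the collecting duct, against 8364, 9848 and 4083 in the proximal tubule (1.77 ± 0.50, adjusted p = 0.0563). Cdh6, the cadherin of early nephron epithelium, had 1518 and 3990 in the collecting duct, against 34864, 27802 and 15427 in the proximal tubule (-3.29 ± 1.04, adjusted p = 0.0914). Anxa1 and Itga1 kept their calls without each single array. Anxa2, Anxa3, Anxa13 and Pcdh7 lost theirs without the first collecting duct pool. Without the second, Anxa3 and Anxa13 were not called. Cdh1 and Cdh6 were separated between the groups without passing the test, and 35% of all genes tested were separated. Of the 19 cadherins, 3 were separated with the collecting duct higher and 3 with it lower.

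Housekeeping and growth lists carried no calls, where 5.84% of all genes tested were called. An unadjusted p under 0.05 was found for 2444 of all 13614 genes. Of 31 cell cycle genes 0 were called by limma, 1 had an unadjusted p under 0.05 and the median was -0.24. Of 26 genes of the primary cilium and cystic kidney disease 0 were called, 3 had an unadjusted p under 0.05 and the median was -0.26. Of 13 imprinted growth genes 0 were called, 3 had an unadjusted p under 0.05 and the median was 0.55. The imprinted gene Peg3 was not called at its brightest probe set (1.22 ± 0.43), but another of its probe sets passed (3.64 ± 0.55, adjusted p = 0.00259 over all probe sets kept). Their summed signal was 323907 and 324416 in the collecting duct, against 149704, 187497 and 214881 in the proximal tubule. With 2 arrays against 3, a p that misses the threshold does not show that these genes are alike on both sides.

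A date-like part of the labels, whose meaning is not stated, splits the 5 arrays into label batches 4 and 3, each holding both structures. Batch 4 held the first pool of each structure. Batch 3 held the second collecting duct pool and the second and the third proximal tubule pools. The actin 3′ control signal was 56583 and 9978 in the collecting duct pools, against 24831, 7167 and 10236 in the proximal tubule pools, low in all 3 arrays of batch 3. Within each batch the difference could be taken separately, and these differences share no array. All 298 higher and all 497 lower genes had the same sign in both batches, which the separation of their arrays fixes in advance. The size was at least 1 in both batches for 293 and 476, but the calls rest on the same arrays. Genes were therefore also chosen in 1 batch and read in the other. The filter drew on the arrays of both batches, and genes above the median in only 1 array had already been left out. The reading is thus not fully independent of the choice. Of 553 genes at least 2 higher in batch 4, 464 (83.9%) were also higher in batch 3 and 356 (64.4%) by at least 1, against 43.5% and 14.2% of all genes. Of 528 genes at least 2 lower in batch 4, 476 (90.2%) were also lower in batch 3 and 404 (76.5%) by at least 1, against 56.5% and 20.7% of all genes. Differences of at least 2 either way were shown by 7.94% of genes in batch 4 and 9.18% in batch 3. Across genes, which are not independent replicates, the differences of the 2 batches correlated at a Pearson r of 0.566. With label batch as a fixed block 627 genes were called (4.61%), 250 higher and 377 lower, 594 of them among the 795. The called genes described here that lost their calls under that block were 14 higher ones, Arg2, Avpr2, Ednrb, Fzd7, Hoxd9, Hpgd, Id3, Kcnj10, Krt19, Nr3c2, Ptprc, Scnn1b, Slit2 and Tgfbr1, and 6 lower ones, Cldn1, Esrra, Hnf4g, Lgr4, Pfkp and Slc4a4.

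**Figure D5:**
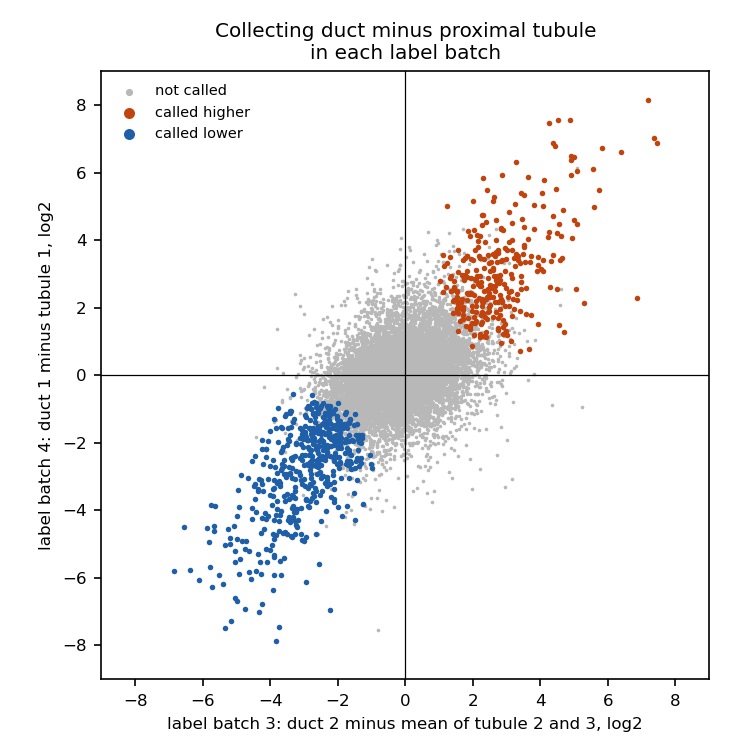
Collecting duct minus proximal tubule within each label batch, each point 1 gene on the log2(signal + 55) scale. The x axis is batch 3 (second collecting duct pool minus the mean of the second and the third proximal tubule pools) and the y axis batch 4 (first pool of each). All 298 genes called higher lie to the upper right of 0 and all 497 called lower to the lower left, which the separation of their arrays fixes in advance.

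The ureteral arrays gave urothelium minus ureteral smooth muscle, an epithelium set against a non-epithelial tissue. That contrast shares no array with collecting duct minus proximal tubule. Both come from 1 fit, however, and share each gene's estimate of spread, so the 2 sets of calls are not fully separate. For urothelium minus muscle 1084 genes were called (7.96%), 685 higher (5.03%) and 399 lower (2.93%). Of the 298 genes higher in the collecting duct, 107 (35.9% of them, and 15.6% of the 685) were also higher in urothelium than in muscle, and 15 (5.03%) were lower. Of the 497 genes lower in the collecting duct, 44 (8.85%) were higher in urothelium and 12 (2.41%) lower. The median difference between urothelium and muscle was 0.93 for the higher and 0.35 for the lower genes, against 0.06 for all genes. Over all genes the Pearson r of the 2 comparisons was 0.028, across genes and with no test. Foxa1, Krt19 and Krt7 were among the 107 genes, with urothelium minus muscle differences of 4.32, 5.06 and 4.04.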

How the data were processed

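The authors deposited intensity signals on a linear scale for 45101 probe sets and 11 arrays. They came from GCOS, Affymetrix's array software, per the submitters' processing notes, which give no version. All arrays share a trimmed mean of 1500 (2% left out at each end), and this scaling was kept; detection calls are not used here. Groups were read from the labels, and replicates numbered in accession order, which pairs nothing.

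A single symbol was given for 34945 probe sets, several for 932 and none here for 9160, and 64 are controls. RefSeq's gene table (GRCm38.p6) held the Entrez identifier of 34741 of the first. The analysis used log2(signal + 55), where 55 is the 20th percentile of all values, rounded. The filter and the choice of probe set kept 13614 genes. One limma fit (limma 3.58.1, R 4.3.3) over 11 arrays and 4 groups had 7 residual and 6.38 prior degrees of freedom, and adjusted p-values are Benjamini-Hochberg over all genes. Errors are SEs from that fit, and precision is limited by how few arrays there are.

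Members and gene lists were chosen with earlier results of these data known. The genes named were the 20 highest and 20 lowest called genes with separated arrays, without clone-derived symbols, from each list up to 5 members by moderated t, all members of lists with 5 or fewer called, and 13 duct and tubule pairs. Other called or nearly called list members (such as Lrp2, Avpr2, Ret and Slc4a4), the genes with an HNF4 string, and Scnn1a and Upk1b, were named after their values were seen. Of all genes listed, 66 had no probe set in the annotation used. When tested on simulated data, the fit recovered 18% of 100 changes of 1.5 (log2) and 67% of 100 changes of 3, with 0 in the wrong direction and 3 false calls.

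Alternatives were quantile normalization, pseudocounts of 12 and 190, averaging the probe sets of a gene, omitting the filter, a stricter filter at the 75th percentile, leaving out x, s and a probe sets (types that can match several transcripts), eBayes with trend and robust options, only the 5 arrays, label batch as a fixed or random block, and each array left out. Promoter sequences are RefSeq's. Python 3.11.15 with pandas 2.3.3 and matplotlib 3.10.9 made the plots.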

Additional observations from a re-analysis of the deposited data

How the results depend on the processing

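The count of 795 called genes ran from 359 to 613 when single arrays of the 2 structures were left out, with 124 to 222 higher and 234 to 409 lower; with 1 collecting duct array left, that array is assumed to vary like the other groups. Under the other alternatives it ran from 590 (pseudocount 12) to 979 (pseudocount 190). It was 818 with quantile normalization, 686 with no filter, 775 with the stricter filter and 600 without x, s and a probe sets. It was 742 with only the 5 arrays, 627 with label batch as a fixed block, 785 with that block on the 5 arrays and 827 with a random block. Of the 163 called genes named here, 77 lost their calls without collecting duct replicate 1, 48 without replicate 2, and 26 to 35 without single proximal tubule arrays. With label batch as a fixed block 20 did, and with the pseudocount of 12, 26. Sign turned in 2 cases, each with another probe set standing for the gene: Susd3 was 0.11 with the pseudocount of 12, and Hpgd was -0.05 without x, s and a probe sets. With the pseudocount of 12 and the probe sets kept, a setting added after seeing the data, the Susd3 log2 fold change was -7.46 and 592 genes were called. Of 339 called genes with several probe sets, 305 had all of them on the same side, 68 had all of them called the same way, and 0 had one called the other way. Of 617 listed genes not called, 11 had another probe set that passed, Peg3 among them. No paired analysis was possible because the replicate numbers follow accession order and pair no samples; label batch does match arrays of both structures, and the fixed block above is that matched fit. The simulation recovered 18% of changes of 1.5. It moved only 100 genes of each size and gave all others equal group means, unlike the data, so that share need not hold here. Differences of this size and below can be missed with 2 arrays against 3.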
